A study of Mus musculus with 12 samples.

Results

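The 10 genes described here are the liver Wnt ligands Wnt2 and Wnt9b, the R-spondin Rspo3, and 7 genes that hepatocytes are known to express under Wnt/β-catenin control, namely Axin2, Lgr5, Tbx3, Rnf43, Znrf3, Rhbg and Slc1a2. They were chosen by symbol from 50600 annotated genes by their place in the pathway, with earlier results of these data known. All 10 were found and all 10 were among the 15219 genes with enough counts to be tested. RNA of whole mouse liver was sequenced in 12 libraries, 4 in each of 3 groups. Every group was of the Rosa26-LSL-dCas9-p300 strain, which carries at Rosa26, behind a loxP-flanked stop cassette, a fusion of nuclease-dead Cas9 to the acetyltransferase p300. The first group had received adeno-associated virus (AAV) with a Pdx1-targeting gRNA, at a total dose of 1e+12 viral genomes for each animal, the second AAV at the same dose with a non-targeting control gRNA, and the third PBS with no virus. Animals were about 8 weeks old at injection into the tail vein, and livers were taken 2 weeks later. The treatment label names the virus AAV.Cbh.gRNA, Cbh being a promoter active in most cell types. The source of Cre, the sex of the animals and whether each library was 1 mouse are not given in the sources used here, so the tests rest on how much these libraries vary, which may be technical in part.

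In the adult liver, Wnt ligands and R-spondins come mainly from endothelial cells around the central vein. Ligands bind Frizzled receptors with the co-receptor Lrp5 or Lrp6, β-catenin is then spared from degradation, and with TCF/LEF factors it switches on genes in the hepatocytes nearest to that vein. R-spondins bind Lgr receptors and remove Rnf43 and Znrf3, membrane ubiquitin ligases that otherwise take Frizzled receptors off the cell surface, while Axin2, Rnf43 and Znrf3 are both targets and brakes of the pathway.

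Libraries held 11824767 to 22008046 counts assigned to genes. Pdx1 itself had 368 counts over the 4 Pdx1 gRNA libraries, against 2 over the control gRNA libraries and 0 over the PBS libraries. Most of the 368 were in Pdx1 gRNA library 4, as libraries 1 to 4 had 26, 32, 54 and 256 counts. In each group 1 library stood apart from the rest, measured by chi-square per degree of freedom between pairs of libraries. For Pdx1 gRNA library 4 this was 98.6 to 124 with its own group, where the other pairs of that group had 21.5 to 25.9. For control gRNA library 1 it was 46.6 to 103, against 30.2 to 55.6 for the other pairs. For PBS library 1 it was 157 to 200, against 36.7 to 114. PBS libraries 2 and 3 also had 70.0 to 80.8 CPM of the Y-linked Ddx3y and 2.61 to 3.64 CPM of Xist, where the other 10 libraries had at most 0.187 CPM of Ddx3y and at least 692 CPM of Xist (CPM of total counts). Sex and virus thus cannot be fully told apart in the comparisons with PBS. Counts of called cell type markers below are given with all 12 libraries only, so they carry no check on sex. Calls of the 10 genes and some others are also given without PBS libraries 2 and 3 and without the 3 libraries that stood apart. The latter setting was added after the data were seen. It keeps PBS libraries 2 and 3, so calls that held there say nothing about sex. It also drops PBS library 1, the PBS library nearest to the virus libraries for Axin2 (9.47 CPM), Lgr5 (8.33 CPM) and Slc1a2 (55.5 CPM), which favours those calls.

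Against PBS, the virus groups differed in 3 of the 10 genes. Axin2, a scaffold of the β-catenin destruction complex and a general Wnt target, was 2.42-fold higher with the Pdx1 gRNA and 2.29-fold higher with the control gRNA than with PBS. Slc1a2, the glutamate transporter of pericentral hepatocytes, fell 5.38-fold with the control gRNA, and averaged 48.8 ± 27.3 CPM with Pdx1 gRNA, 34.7 ± 29.4 CPM with control gRNA and 187 ± 89.9 CPM with PBS (CPM are counts scaled to library size with TMM factors, SD, n = 4 each). Lgr5, an R-spondin receptor, fell 1.94-fold with the Pdx1 gRNA, and averaged 5.65 ± 1.82 CPM with Pdx1 gRNA, 6.95 ± 1.59 CPM with control gRNA and 10.99 ± 2.96 CPM with PBS. The ligands Wnt2 and Wnt9b and the R-spondin Rspo3 passed no test, and no gene of the 10 passed it between the 2 gRNAs. In edgeR's quasi-likelihood test with Benjamini-Hochberg adjustment over all tested genes, called at an adjusted p under 0.05, 1 of the 10 rose and 1 fell in control gRNA against PBS, where 32.1% of all tested genes were called (16.3% higher, 15.8% lower). In Pdx1 gRNA against PBS, 1 rose and 1 fell, where 22.1% of all tested genes were called (11.7% higher, 10.4% lower). In both comparisons the share called among the 10 genes was thus no higher than the background. The libraries of the groups did not overlap for 2 of the 10 in control gRNA against PBS and for 2 in Pdx1 gRNA against PBS, beside 28.8% and 21.4% of all tested genes. These comparisons share the PBS libraries and are not independent. With upper-quartile scaling, the log2 fold change of the median gene in control gRNA against PBS moved by 0.11, and 61.8% of called genes were higher, against 50.9% with TMM scaling.

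**Figure D1:**
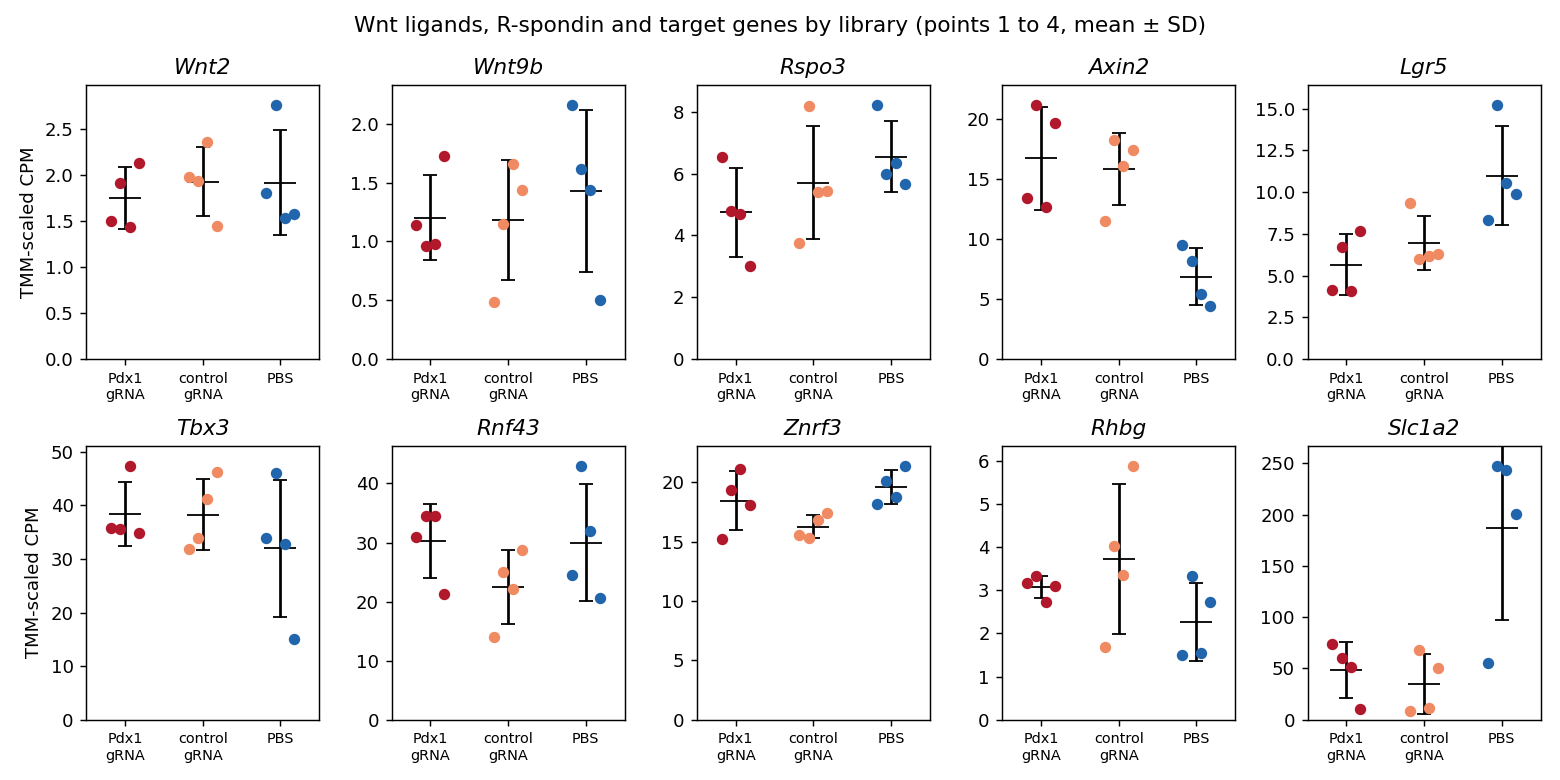
TMM-scaled read levels (CPM) of the 10 genes, 1 panel per gene with its own axis from 0. Points are libraries 1 to 4 from left to right within a group, and the bars are the mean ± SD of 4 libraries. For Axin2 the lowest virus library (11.5 CPM) lies above the highest PBS library (9.47 CPM), while for Wnt2 all groups overlap.

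Per kilobase of exon, Slc1a2 had the highest level of the 10 genes after PBS (14.2 ± 6.85 CPM per kb, SD, n = 4), but Tbx3 had the highest after Pdx1 gRNA (5.79 ± 0.91) and after control gRNA (5.78 ± 1.00). Rnf43 came second in both virus groups and Tbx3 second after PBS. After PBS the library ranges of Slc1a2 (4.23 to 18.8 CPM per kb) and Tbx3 (2.28 to 6.94) overlapped. In both virus groups the range of Rnf43 overlapped that of the next gene in the order. At the low end, Wnt9b was last in every group (0.266 ± 0.080 CPM per kb with Pdx1 gRNA, 0.262 ± 0.113 with control gRNA and 0.316 ± 0.153 with PBS), below every library of its neighbour in the order. Wnt2 and Lgr5 held the places above Wnt9b in all groups, with library ranges that overlapped each other: Wnt2 was above Lgr5 in the virus groups and below it after PBS. Axin2 stood at 3.04 ± 0.78 CPM per kb with Pdx1 gRNA, 2.87 ± 0.54 with control gRNA and 1.25 ± 0.43 with PBS, where its range overlapped that of Rhbg.

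The ligands were scarce and did not separate the groups. Wnt2, made by sinusoidal and central vein endothelial cells, had 1.5, 1.92, 1.44 and 2.13 CPM in the Pdx1 gRNA libraries, 1.98, 1.93, 2.36 and 1.44 CPM in the control gRNA libraries, and 1.80, 2.76, 1.54 and 1.57 CPM in the PBS libraries. These rest on 15 to 57 counts per library, and all 3 groups overlap. The log2 fold change in control gRNA against PBS was 0.02 (95% interval -0.60 to 0.63, edgeR adjusted p = 0.975), and its sign turned under 9 of 18 other settings. Wnt9b, the other ligand of central vein endothelium, had 1.14, 0.958, 0.982 and 1.73 CPM with Pdx1 gRNA, 0.485, 1.15, 1.65 and 1.44 CPM with control gRNA, and 2.16, 1.62, 1.43 and 0.501 CPM with PBS. With 7 to 40 counts per library, its interval in control gRNA against PBS ran from -1.27 to 0.71 on the log2 scale, which holds both a fall and a rise.

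Rspo3, the R-spondin of central vein endothelium and stellate cells, had 6.52, 4.79, 4.68 and 3.0 CPM with Pdx1 gRNA, 3.77, 8.19, 5.42 and 5.43 CPM with control gRNA, and 8.21, 5.99, 6.35 and 5.65 CPM with PBS. The lowest library was Pdx1 gRNA library 4, and the groups overlap. The log2 fold change was -0.47 ± 0.28 in Pdx1 gRNA against PBS (SE, edgeR adjusted p = 0.253) and -0.21 ± 0.28 in control gRNA against PBS (adjusted p = 0.607). Of the exon bases of Rspo3, 13.1% are shared with the annotated gene Gm48159, so reads there could not be given to Rspo3 alone. Gm48159 had no counts, which says nothing about those shared reads.

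Markers of the cells that make these ligands summed, on average, to lower levels in both virus groups than in PBS. The 12 endothelial markers summed to 110 to 187 CPM with Pdx1 gRNA, 127 to 218 CPM with control gRNA and 187 to 443 CPM with PBS, with 4 of the 12 falling in control gRNA against PBS, 7 falling in Pdx1 gRNA against PBS and none rising in either. Of all tested genes, 15.8% fell in control gRNA against PBS and 10.4% in Pdx1 gRNA against PBS. The 5 central vein markers summed to 11.4 to 16.7 CPM with Pdx1 gRNA, 14.1 to 20.9 CPM with control gRNA and 22.8 to 31.7 CPM with PBS. None of these 5 passed the test in control gRNA against PBS, and 2 fell in Pdx1 gRNA against PBS. The 12 sinusoidal endothelial markers summed to 217 to 371 CPM with Pdx1 gRNA, 277 to 426 CPM with control gRNA and 306 to 696 CPM with PBS, and 3 fell in control gRNA against PBS and 4 in Pdx1 gRNA against PBS. The 12 stellate cell markers summed to 532 to 814 CPM with Pdx1 gRNA, 658 to 1037 CPM with control gRNA and 886 to 1237 CPM with PBS, and 3 fell in control gRNA against PBS and 2 in Pdx1 gRNA against PBS. No marker of these 4 lists was at 0 in any library. In bulk RNA, fewer cells of a type and less RNA per cell cannot be told apart, and the part of this difference in the ligand values was not tested.

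Of Lgr5, Rnf43 and Znrf3, the receptor and the regulators among the 10 genes, Lgr5 alone passed a test. Lgr5 binds R-spondins and marks the hepatocytes at the central vein. It had 4.14, 6.71, 4.08 and 7.67 CPM with Pdx1 gRNA, 9.33, 6.0, 6.16 and 6.32 CPM with control gRNA, and 8.33, 15.2, 10.6 and 9.87 CPM with PBS. All 4 Pdx1 gRNA libraries lay below all 4 PBS libraries, while control gRNA library 1 lay above PBS library 1. Lgr5 fell by 0.95 ± 0.27 on the log2 scale in Pdx1 gRNA against PBS (edgeR adjusted p = 0.0241), a level 1.94-fold lower. This call was lost without PBS libraries 2 and 3 (log2 fold change -0.69, adjusted p = 0.173), and without Pdx1 gRNA library 1 (0.0658), Pdx1 gRNA library 3 (0.0617) or PBS library 2 (0.0776), and when only the 8 libraries compared were fitted (0.0554), and it held without the 3 libraries that stood apart (-1.27, 0.00321). In control gRNA against PBS the log2 fold change was -0.66 ± 0.26 and did not pass (adjusted p = 0.0745); it passed in DESeq2's test (0.0437), without control gRNA library 1 (0.0483), without PBS library 1 (0.0355) and without the 3 libraries that stood apart (-0.96, 0.00901).

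Rnf43 and Znrf3, the ubiquitin ligases that R-spondins remove, passed no test. Rnf43 had 30.9, 34.4, 34.4 and 21.2 CPM with Pdx1 gRNA, 14.0, 25.0, 22.2 and 28.8 CPM with control gRNA, and 24.5, 43.0, 32.0 and 20.5 CPM with PBS. Its lowest virus values were in Pdx1 gRNA library 4 and control gRNA library 1, and the groups overlap. Znrf3 had 15.3, 19.4, 21.2 and 18.1 CPM with Pdx1 gRNA, 15.6, 15.3, 16.8 and 17.4 CPM with control gRNA, and 18.2, 20.1, 18.8 and 21.4 CPM with PBS. Every control gRNA library lay below every PBS library for Znrf3, but the log2 fold change of -0.27 ± 0.13 did not pass the edgeR test (adjusted p = 0.125).

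Axin2 had the smallest adjusted p of the 10 genes in both comparisons with PBS. It had 13.4, 21.2, 12.7 and 19.7 CPM with Pdx1 gRNA, 11.5, 18.3, 16.1 and 17.4 CPM with control gRNA, and 9.47, 8.17, 5.43 and 4.44 CPM with PBS. Both virus groups lay wholly above PBS and overlapped each other. Axin2 averaged 15.8 ± 3.0 CPM with control gRNA and 6.88 ± 2.34 CPM with PBS (SD, n = 4 each), a log2 fold change of 1.20 ± 0.26 (2.29-fold, edgeR adjusted p = 0.00521). With Pdx1 gRNA it averaged 16.7 ± 4.30 CPM, a log2 fold change of 1.28 ± 0.26 against PBS (2.42-fold, adjusted p = 0.00578). Both calls held under all 18 alternatives, with adjusted p from 2.81e-04 to 0.0457 in control gRNA against PBS and from 1.31e-04 to 0.0482 in Pdx1 gRNA against PBS. The weakest were those without PBS libraries 2 and 3, where the log2 fold changes were 1.16 in control gRNA against PBS and 1.25 in Pdx1 gRNA against PBS.

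Genes of dividing cells rose beside Axin2: all 5 proliferation markers rose in control gRNA against PBS (beside 16.3% of all tested genes) and all 5 in Pdx1 gRNA against PBS (beside 11.7%), and they summed to 47.7 to 79.6 CPM with Pdx1 gRNA, 49.1 to 111 CPM with control gRNA and 5.70 to 36.4 CPM with PBS. Of 6 cholangiocyte markers, 4 rose in control gRNA against PBS (median log2 fold change 1.39) and 0 in Pdx1 gRNA against PBS (median 0.67). Their sums were 46.9 to 105 CPM with Pdx1 gRNA, 60.05 to 410 CPM with control gRNA and 24.6 to 71.0 CPM with PBS. The 410 CPM were in control gRNA library 1, and the other control gRNA libraries had 60.05 to 122 CPM. No marker of either list was at 0 in any library. Their part in the Axin2 values was not tested.

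Tbx3, a repressor that is a β-catenin target of pericentral hepatocytes, had 35.7, 35.5, 47.4 and 34.8 CPM with Pdx1 gRNA, 31.8, 34.0, 41.1 and 46.3 CPM with control gRNA, and 34.0, 46.0, 32.9 and 15.1 CPM with PBS. PBS library 4 was the low one, and the groups overlap. The log2 fold change was 0.26 ± 0.26 in control gRNA against PBS (edgeR adjusted p = 0.474).

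The last 2 genes carry nitrogen compounds in pericentral hepatocytes. Rhbg, an ammonium transporter, had 3.16, 3.32, 2.72 and 3.10 CPM with Pdx1 gRNA, 1.68, 4.02, 3.35 and 5.87 CPM with control gRNA, and 1.5, 3.33, 1.54 and 2.72 CPM with PBS. The log2 fold change in control gRNA against PBS was 0.71 ± 0.37 (edgeR adjusted p = 0.160), and the groups overlap. Exons of the annotated gene Gm38392 cover 61.4% of the exon bases of Rhbg, so reads there could not be given to Rhbg alone and its level is uncertain.

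Slc1a2, which takes up glutamate for glutamine synthesis, had the widest range of the 10 genes. It had 73.5, 60.4, 51.3 and 10.2 CPM with Pdx1 gRNA, 8.39, 68.3, 11.7 and 50.5 CPM with control gRNA, and 55.5, 247, 243 and 201 CPM with PBS. Of the PBS libraries, 3 lay above 200 CPM, and PBS library 1 lay among the virus libraries. Slc1a2 fell by 2.43 ± 0.76 on the log2 scale in control gRNA against PBS (5.38-fold lower, edgeR adjusted p = 0.0310). In Pdx1 gRNA against PBS the log2 fold change was -1.93 ± 0.75 and did not pass (adjusted p = 0.0874); it passed in DESeq2's test (0.0443), without PBS library 1 (0.0483) and without the 3 libraries that stood apart (-1.92, 0.0285). The call in control gRNA against PBS was lost without PBS libraries 2 and 3 (log2 fold change -1.91, adjusted p = 0.160) and without any of control gRNA library 1 (0.0628), control gRNA library 3 (0.0749), PBS library 2 (0.0658), PBS library 3 (0.0683) or PBS library 4 (0.0537), as well as with no filter (0.108) and with the replicate block (0.0524), and it held without the 3 libraries that stood apart (-2.42, 0.00960).

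The low virus libraries of Slc1a2 were Pdx1 gRNA library 4 and control gRNA libraries 1 and 3, and the same 3 were the lowest in their groups for Glul, glutamine synthetase, which is confined to the innermost pericentral hepatocytes. Glul and Oat, which is expressed in the same cells, were chosen for this after their values were seen. Glul had 646, 920, 611 and 392 CPM with Pdx1 gRNA, 229, 1011, 406 and 794 CPM with control gRNA, and 968, 1390, 1194 and 765 CPM with PBS. It did not pass the test (control gRNA against PBS, log2 fold change -0.82 ± 0.41, edgeR adjusted p = 0.139). Oat, ornithine aminotransferase, had 400, 304, 440 and 259 CPM with Pdx1 gRNA, 199, 700, 474 and 498 CPM with control gRNA, and 440, 965, 1267 and 1051 CPM with PBS. Its log2 fold change was -0.99 ± 0.38 in control gRNA against PBS (adjusted p = 0.0593, passing under 4 of 18 alternatives). In Pdx1 gRNA against PBS it was -1.41 ± 0.38, and Oat fell (adjusted p = 0.0200). That fall was not called without PBS libraries 2 and 3, where 0 of 20 tested pericentral genes, a list that holds Oat, fell. Cyp2e1, a pericentral cytochrome P450, was also lowest in Pdx1 gRNA library 4 (537 CPM) and in control gRNA library 1 (446 CPM). Every PBS library had 3492 CPM or more. Glul, Oat and Cyp2e1 are part of a list of 20 pericentral genes. In Pdx1 gRNA library 4 this list summed to 10463 CPM, against 10832 to 12256 CPM in the rest of its group. Control gRNA libraries 1 to 4 had 5762, 11603, 11218 and 12519 CPM. Only control gRNA library 1 was thus far below its group. The low values of these genes do not stand for the whole list, though such sums weigh the highest genes most.

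**Figure D2:**
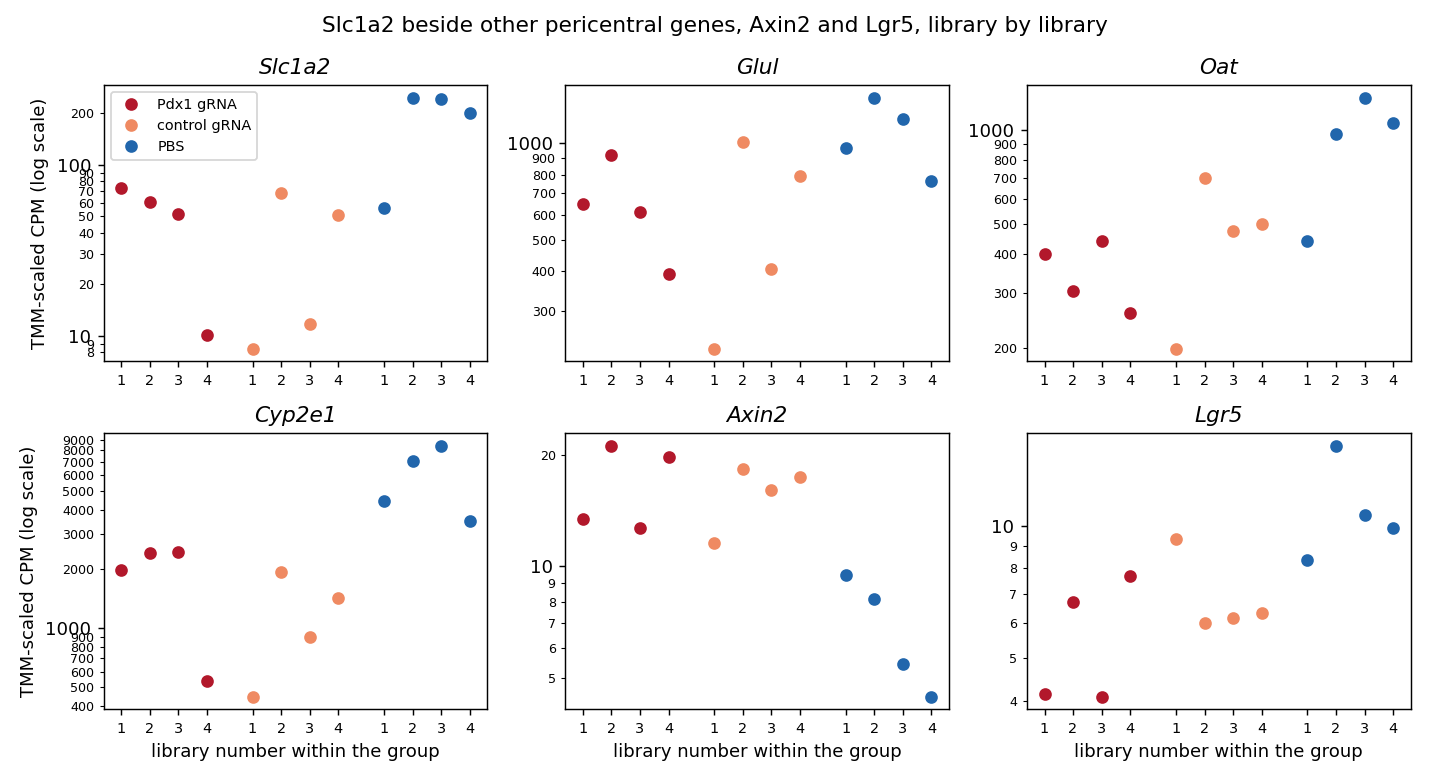
TMM-scaled CPM on a log axis of Slc1a2, Glul, Oat, Cyp2e1, Axin2 and Lgr5 in each library, with the library number within its group on the horizontal axis. Pdx1 gRNA library 4 (10.2 CPM) and control gRNA libraries 1 and 3 (8.39 and 11.7 CPM) are the lowest for Slc1a2, and PBS library 1 (55.5 CPM) is the lowest of its group.

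Start-site windows of Axin2 and Slc1a2 are printed because these genes were called in control gRNA against PBS. Windows of 250 bases before to 50 after the start site were taken from RefSeq (GRCm38.p6), where 5 of the 10 genes matched by symbol (Wnt2, Wnt9b, Axin2, Rnf43 and Slc1a2). The Axin2 window spans the start of the counted gene (position 108920349), but that of Slc1a2 lies inside the counted gene, which starts at position 102658659 on the same strand, so it is an internal start site and not the outermost promoter. Capitals mark the TCF/LEF core CTTTGA or CTTTGT on either strand.
Axin2, chr11:108920099-108920398, plus strand: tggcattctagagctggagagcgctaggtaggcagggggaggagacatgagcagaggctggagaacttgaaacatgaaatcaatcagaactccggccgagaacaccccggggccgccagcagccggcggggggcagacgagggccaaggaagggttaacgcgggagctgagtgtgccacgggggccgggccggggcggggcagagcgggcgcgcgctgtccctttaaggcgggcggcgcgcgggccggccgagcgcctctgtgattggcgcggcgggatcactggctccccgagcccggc
Slc1a2, chr2:102706188-102706487, plus strand: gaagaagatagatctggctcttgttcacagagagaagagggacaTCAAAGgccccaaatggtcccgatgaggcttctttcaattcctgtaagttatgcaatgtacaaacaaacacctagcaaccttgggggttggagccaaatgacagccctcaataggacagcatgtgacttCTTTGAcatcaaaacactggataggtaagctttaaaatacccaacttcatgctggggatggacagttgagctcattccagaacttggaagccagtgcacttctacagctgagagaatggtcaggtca
The Axin2 window holds neither core. The Slc1a2 window holds 2 matches to CTTTGA, of which 1 is on the opposite strand, where it reads TCAAAG. Of 32851 promoter windows of this length, 16.0% hold CTTTGA on either strand and 31.2% hold at least 1 of the 2 cores, so a match is common, and it does not show binding. The region before the outermost start of Slc1a2 was not searched. The windows of Wnt2, Wnt9b and Rnf43 held none.

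Axin2 and Lgr5 moved in opposite directions, so their ratio within a library, which does not depend on scaling, was also taken. Axin2 over Lgr5, each per kilobase, was 6.04, 5.88, 5.80 and 4.78 with Pdx1 gRNA, 2.30, 5.67, 4.87 and 5.13 with control gRNA, and 2.12, 1.00, 0.959 and 0.838 with PBS. No virus library overlapped a PBS library, although control gRNA library 1 (2.30) and PBS library 1 (2.12) were close. This ratio was chosen after the values were seen and is given with no test.

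**Figure D3:**
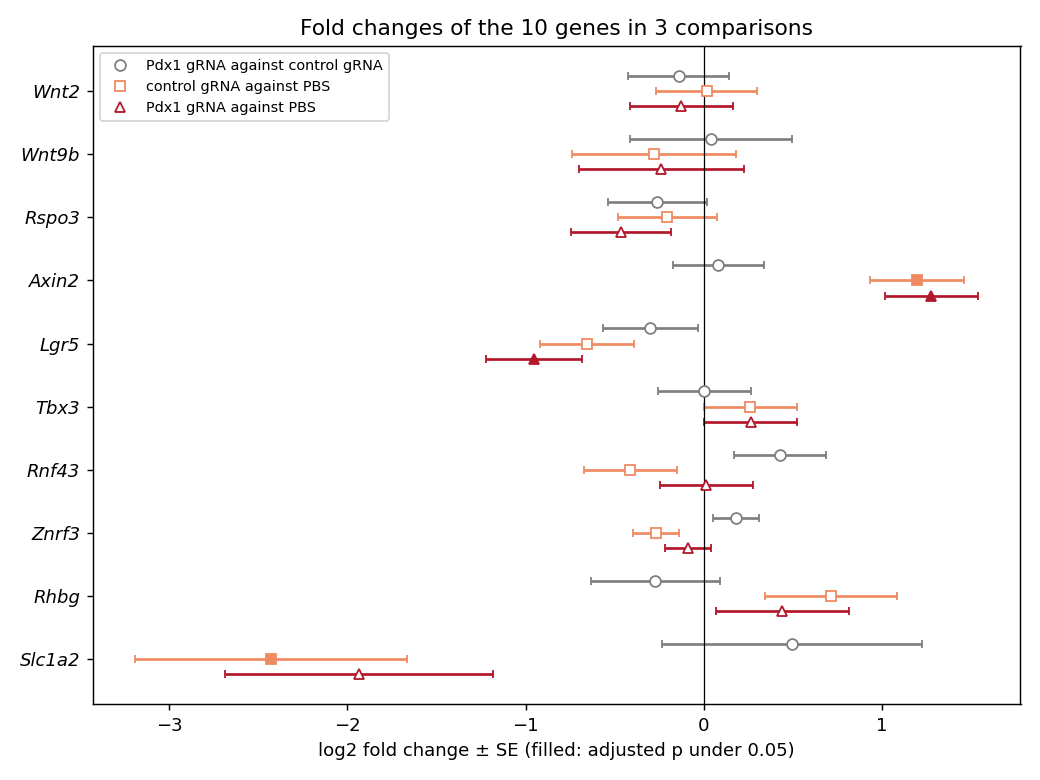
Log2 fold change ± SE of the 10 genes in the 3 comparisons, from 1 edgeR fit of 12 libraries. Filled symbols have an adjusted p under 0.05: Axin2 in both comparisons with PBS, Slc1a2 in control gRNA against PBS and Lgr5 in Pdx1 gRNA against PBS.

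Between the gRNAs, which asks what targeting Pdx1 adds to virus and fusion, 0 of the 10 genes were called by edgeR, 0 by DESeq2 and 0 had an unadjusted p under 0.05. Of all tested genes 0% were called, and 6.03% had an unadjusted p under 0.05. The log2 fold changes ran from -0.30 for Lgr5 to 0.49 for Slc1a2, with a median of 0.02 beside -0.01 for all tested genes. For 0 of the 10 did the groups not overlap, where 6.65% of tested genes were so separated. For Axin2 the 95% interval of the log2 fold change was -0.47 to 0.63, and for Slc1a2 it was -1.10 to 2.09.

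Other genes of the pathway were taken from lists of ligands, receptors, inhibitors, secretion genes, intracellular components and TCF/LEF factors. In control gRNA against PBS 5 of 11 tested receptors fell, 0 rose and 6 were not called, with a median log2 fold change of -0.77 beside -0.01 for all tested genes, where 15.8% of all tested genes fell. The count of receptors that fell was 4 without PBS libraries 2 and 3 and 7 without the 3 libraries that stood apart. Lgr4, the more widely expressed relative of Lgr5, had 38.6, 35.2, 46.2 and 27.7 CPM with Pdx1 gRNA, 34.8, 40.9, 29.7 and 38.4 CPM with control gRNA, and 58.2, 88.7, 80.5 and 89.5 CPM with PBS. Every virus library thus lay below every PBS library, and Lgr4 fell by 1.14 ± 0.18 on the log2 scale in control gRNA against PBS (edgeR adjusted p = 0.00103). The co-receptor Lrp6 fell by 1.35 ± 0.22 (adjusted p = 0.00120), and the Frizzled receptors Fzd8 and Fzd4 fell by 1.32 ± 0.24 (adjusted p = 0.00184) and by 0.77 ± 0.15 (adjusted p = 0.00308). These 4 calls held under all 18 alternatives. Pdx1 gRNA against PBS, with the same PBS libraries, had 6 receptors that fell and 0 that rose, but 2 that fell without PBS libraries 2 and 3. With all 12 libraries, 10.4% of all tested genes fell in this comparison.

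Of the other ligands and R-spondins, 6 of 20 could be tested, and Wnt4 rose in control gRNA against PBS. Wnt4 had 4.92, 6.56, 11.1 and 112 CPM with Pdx1 gRNA, 78.4, 20.6, 26.4 and 24.8 CPM with control gRNA, and 6.89, 1.33, 2.56 and 2.00 CPM with PBS. Its highest values were in Pdx1 gRNA library 4 and control gRNA library 1, which stood apart from their groups. The log2 fold change in control gRNA against PBS was 3.51 ± 1.07 (edgeR adjusted p = 0.0280). The call was lost without control gRNA library 1 (2.84, adjusted p = 0.0808), without PBS library 2, 3 or 4 (adjusted p = 0.0664, 0.0679 and 0.0646), without PBS libraries 2 and 3 (3.05, 0.160) and with no filter (0.0820). Wnt5a, a ligand of the β-catenin-independent branch, had a log2 fold change of 0.82 ± 0.35 and did not pass (adjusted p = 0.0862), though it did without PBS library 1 (1.12, 0.0219) and without the 3 libraries that stood apart (0.97, 0.0497). Wnt2b (-0.99 ± 0.42, adjusted p = 0.0892) and Rspo1 (-1.83 ± 0.99, adjusted p = 0.174) did not pass.

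Inside the cell, 1 of 17 tested components rose and 2 fell in control gRNA against PBS, and of 12 TCF/LEF factors and cofactors 1 rose and 4 fell, beside 16.3% of all tested genes that rose and 15.8% that fell. Without PBS library 1, 5 components fell, and without the 3 libraries that stood apart, 7 fell. Leaving out PBS libraries 2 and 3 gave 0 components that rose and 2 that fell. In that setting 1 of the TCF/LEF factors and cofactors rose and 2 fell. Tcf7, a TCF factor that is also expressed in T cells, rose by 1.12 ± 0.17 on the log2 scale (edgeR adjusted p = 8.93e-04). The Groucho co-repressors Tle1, Tle4 and Tle2, which hold TCF targets silent, fell by 0.91 ± 0.16 (adjusted p = 0.00162), 0.52 ± 0.14 (adjusted p = 0.0120) and 1.15 ± 0.36 (adjusted p = 0.0292). The kinase Csnk1e rose by 1.28 ± 0.30 (adjusted p = 0.00713), while Apc, a scaffold of the destruction complex, fell by 0.58 ± 0.12 (adjusted p = 0.00414) and Dvl3, which relays the signal from Frizzled, fell by 0.72 ± 0.17 (adjusted p = 0.00777). Tnks, a tankyrase that marks Axin for degradation, did not pass (-0.61 ± 0.23, adjusted p = 0.0581), but passed in DESeq2's test (0.0354), without control gRNA library 1 (0.0399), without PBS library 1 (0.00336) and without the 3 libraries that stood apart (-0.96, 1.3e-04). Without PBS libraries 2 and 3 the calls of Tle4 (adjusted p = 0.102), Csnk1e (0.0851) and Dvl3 (0.0757) were lost, and that of Tle2 was lost without control gRNA library 1, 2 or 3 (0.0715, 0.0522 and 0.0718) or PBS library 1 (0.0805). With no filter Tle4 (0.0929) and Tle2 (0.0644) missed the threshold, as did Tle2 with the replicate block (0.0704). The 5 inhibitors and 2 secretion genes tested gave no call (log2 fold changes were, for those of smallest p, Kremen1 -0.44 ± 0.20, Frzb 0.61 ± 0.45, Sfrp1 -0.63 ± 0.64, and Porcn 0.51 ± 0.47). Kremen1, a receptor of Dkk inhibitors, fell without PBS library 1 (-0.64, adjusted p = 0.00168) and without the 3 libraries that stood apart (-0.68, 0.00188). Notum, an inhibitor that removes the lipid of Wnt ligands, averaged 34.4 ± 13.9 CPM with control gRNA and 37.8 ± 17.8 CPM with PBS. Tcf7 averaged 13.7 ± 2.12 CPM with Pdx1 gRNA, 11.5 ± 1.02 CPM with control gRNA and 5.27 ± 0.85 CPM with PBS. The 6 lymphocyte markers, of which 1 rose in control gRNA against PBS and 0 in Pdx1 gRNA against PBS, summed to 4.08 to 10.05 CPM with Pdx1 gRNA, 8.36 to 16.3 CPM with control gRNA and 5.43 to 9.47 CPM with PBS, with none at 0 in any library. Their part in the Tcf7 value was not tested.

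Other zonated hepatocyte genes were called in both directions. Of 20 other pericentral genes, 2 rose and 6 fell in control gRNA against PBS, with a median log2 fold change of -0.47. Of 20 periportal genes, 2 rose and 10 fell, with a median of -0.77, beside 16.3% of all tested genes that rose and 15.8% that fell. In either direction, 8 of 20 pericentral and 12 of 20 periportal genes were called, beside 32.1% of all tested genes. Without PBS libraries 2 and 3, 2 pericentral genes rose and 2 fell, and 0 periportal genes rose and 5 fell. Cyp2e1 fell by 2.33 ± 0.52 (edgeR adjusted p = 0.00593, but 0.0624 without PBS libraries 2 and 3), while Cyp2a5, another pericentral P450, rose by 2.18 ± 0.34 (adjusted p = 9.00e-04). Cyp2a5 averaged 3622 ± 823 CPM with control gRNA and 799 ± 251 CPM with PBS; near-identical P450 genes can share reads, so values of single members are uncertain. Cyp27a1 and Cyp2c37 fell by 1.39 ± 0.28 (adjusted p = 0.00336) and 2.26 ± 0.57 (adjusted p = 0.0108). The immunoglobulin receptor Pigr, of the periportal list, fell by 2.42 ± 0.43 (adjusted p = 0.00187), and the periportal amino acid enzymes Gls2, Sds and Uroc1 fell by 1.66 ± 0.34 (adjusted p = 0.00392), 1.05 ± 0.24 (adjusted p = 0.00573) and 1.28 ± 0.29 (adjusted p = 0.00638). General hepatocyte markers were called too: of 9, 4 fell in control gRNA against PBS and 2 in Pdx1 gRNA against PBS, with none rising. They summed to 60762 to 123323 CPM with Pdx1 gRNA, which overlaps PBS, 63201 to 85252 CPM with control gRNA and 94707 to 131288 CPM with PBS. Between the gRNAs no gene of these 8 lists was called by edgeR. The genes with the smallest p there had adjusted p of 0.809 or more (Dvl3, 0.41 ± 0.17; Gsk3a, 0.25 ± 0.11; Tle4, 0.32 ± 0.13; Bcl9l, 0.34 ± 0.17; and Wls, -0.65 ± 0.29, all log2 fold changes ± SE).

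**Figure D4:**
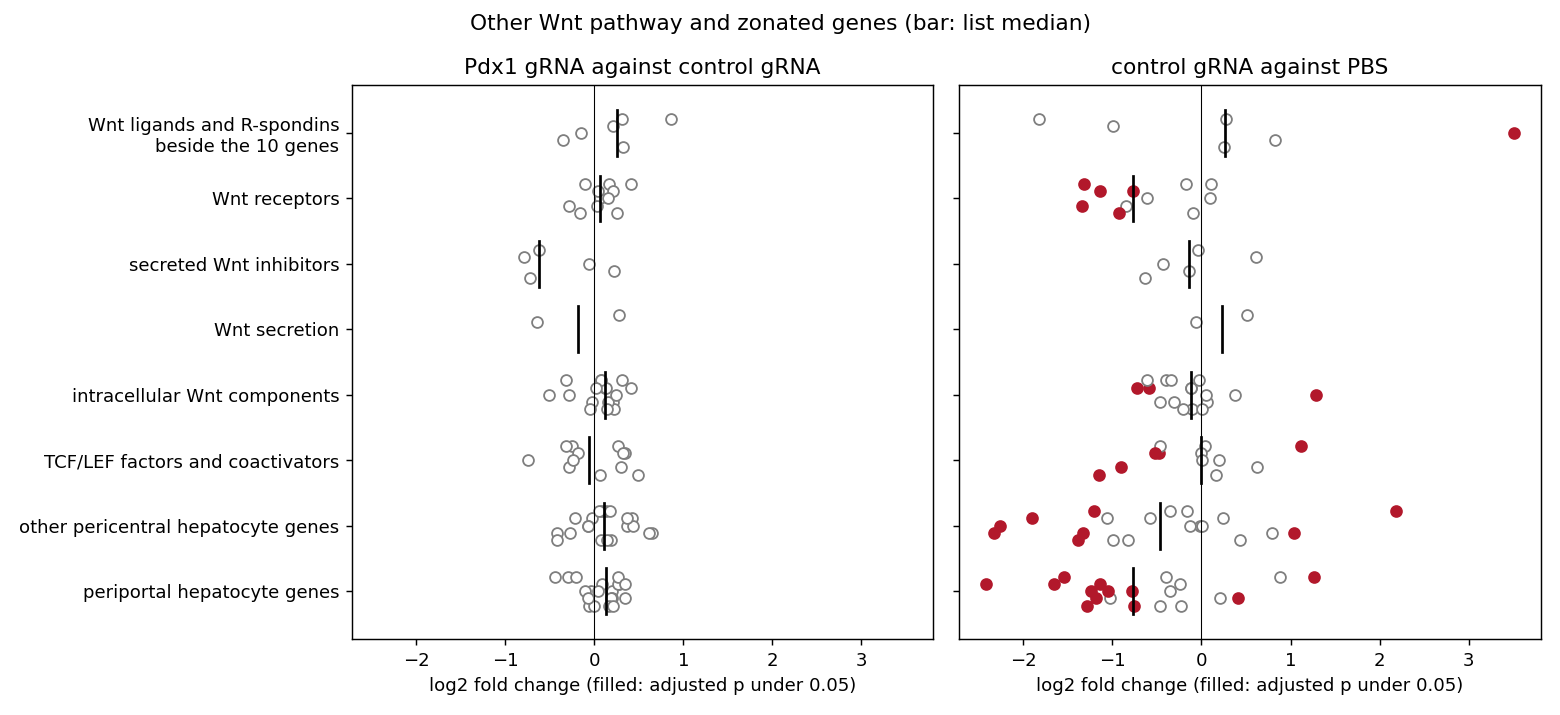
Log2 fold change of each tested gene of the other Wnt pathway and zonation lists in Pdx1 gRNA against control gRNA (left) and control gRNA against PBS (right). Filled points have an adjusted p under 0.05 and the vertical bar is the list median: no point is filled on the left, and 5 of 11 receptors are filled and below 0 on the right.

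Over the 12 libraries, the genes whose log2 CPM ran most like that of Axin2 were Cc2d1b, Polr3d and P4ha2 (Pearson r 0.956, 0.95 and 0.948). For Lgr5 they were Smad3, Arl4d and Lama3 (r 0.928, 0.928 and 0.914), and for Rspo3 they were Iigp1, Eaf2 and Vkorc1 (r 0.925, 0.922 and 0.908). For Wnt2 the closest were Klhl8, Ostm1 and Tmem248, at a lower r of 0.759, 0.754 and 0.734. These are the highest r among all tested genes, across libraries that differ by group, and are given as a description with no test.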

How the data were processed

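Liver RNA of 12 libraries was analysed from deposited counts, 1 file per library. Per the file headers, the authors counted paired fragments with featureCounts 1.4.6-p4, with both ends mapped, without strand and against GENCODE M13; the counts were not normalized. The submitters' processing notes name Trimmomatic 0.32, STAR 2.4.1a, DESeq2 1.22.0, R 3.5.1 and the builds GRCm38 and mm10. Of 50600 gene IDs, 50376 matched a symbol. Libraries were scaled by TMM, filtered with filterByExpr (minimum count 10) and fitted together in edgeR 4.0.16 (robust quasi-likelihood test, two-sided, R 4.3.3), with p-values adjusted by Benjamini-Hochberg over 15219 genes. Adjusted p are those of edgeR unless another tool is named. "Rose" and "fell" mean an adjusted p under 0.05. CPM use TMM-scaled totals, and log2 fold changes are given ± SE.

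The 10 genes and all lists were chosen with earlier results of these data known. Outside the 10, the rule named up to 4 genes per list by p in control gRNA against PBS and 2 in Pdx1 gRNA against control gRNA (for the last, those at the smallest adjusted p are printed), and the 3 genes most like Axin2, Lgr5, Wnt2 and Rspo3 by r. Alternatives were scaling by upper quartile or by DESeq2 size factors, no filter, a filter of 1 CPM in 4 libraries, DESeq2 1.42.0, limma-voom (limma 3.58.1), a fit of 8 libraries only, a block for replicate number, PBS libraries 2 and 3 left out, each library left out, and, added after the data were seen, the 3 libraries that stood apart left out.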

Additional observations from a re-analysis of the deposited data

Results flagged for a closer look

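Of the 30 groups of 4 libraries formed by the 10 genes, 2 held a library far from the other 3 by Dixon's test, where chance alone gives about 1 in 20. Lgr5 stood at 9.33 CPM in control gRNA library 1, above 6.0 to 6.32 CPM in the other control gRNA libraries. Tbx3 stood at 47.4 CPM in Pdx1 gRNA library 3, above 34.8 to 35.7 CPM in the other Pdx1 gRNA libraries.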

How the results depend on the processing

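Of the 18 alternatives, all kept the rise of Axin2 in both comparisons with PBS, and the calls of Lgr5 and Slc1a2 changed under the settings named above: Lgr5 was called in 4 of 18 in control gRNA against PBS and 13 of 18 in Pdx1 gRNA against PBS, Slc1a2 in 10 and 3 of 18. Numbers of called genes moved as follows. In Pdx1 gRNA against control gRNA, with 0 genes called by edgeR on 12 libraries, DESeq2's Wald test called 14 (6 higher, 8 lower), the fit of only the 8 libraries compared 1, and the fit without the 3 libraries that stood apart 4; leaving out 1 library at a time gave 0 to 1, and none of these calls was among the 10 genes. In control gRNA against PBS, 4887 genes were called, 2258 without PBS libraries 2 and 3. In Pdx1 gRNA against PBS, 3370 were called, 2017 with only the 8 libraries compared, 1277 without PBS libraries 2 and 3, 5238 without the 3 libraries that stood apart, and 2132 (without Pdx1 gRNA library 4) to 5421 (without PBS library 1) with 1 library left out. Of the 10 genes, 2 were called in each comparison with PBS. In control gRNA against PBS this became 1 with no filter, 1 with the replicate number as a block and 1 without PBS libraries 2 and 3, with 1 to 3 when 1 library was left out; in Pdx1 gRNA against PBS it became 1 with only the 8 libraries compared and 1 without PBS libraries 2 and 3, with 1 to 3 when 1 library was left out.

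The replicate numbers did not pair the libraries: 3 of 12 same-numbered pairs correlated above 0.1 (r from -0.45 to 0.22), and 2 of 12 libraries correlated best with their own number. With the block, Slc1a2 missed the threshold in control gRNA against PBS (log2 fold change -2.57, adjusted p = 0.0524), Lgr5 kept its call in Pdx1 gRNA against PBS (-0.97, 0.0432), and 4127, 2553 and 0 genes were called in control gRNA against PBS, Pdx1 gRNA against PBS and Pdx1 gRNA against control gRNA.

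Signs turned only for log2 fold changes that were not called. In Pdx1 gRNA against control gRNA, Wnt9b became -0.014 with upper-quartile scaling and -0.45 without the 3 libraries that stood apart (-0.20 to 0.27 with 1 library left out); Axin2 became -0.13 without those 3 (-0.027 to 0.19); Tbx3 became -0.059 with upper-quartile scaling, -0.0039 with no filter, -0.019 with the block and -0.033 without those 3 (-0.11 to 0.11); Rhbg ran from -0.50 to 0.034 and Porcn from -0.13 to 0.78 with 1 library left out. In control gRNA against PBS, Wnt2 became -0.013 with DESeq2 size factors, -0.0014 with DESeq2's test, -0.0013 with only the 8 libraries compared and -0.041 without the 3 libraries that stood apart (-0.11 to 0.23); without those 3, Wnt9b became 0.27 (-0.57 to 0.017), Rspo3 0.065, Frzb -0.12 and Notum 0.44 (-0.33 to 0.24). Porcn became -0.020 without PBS libraries 2 and 3, and Wls 0.050 with upper-quartile scaling and 0.0034 with the block (-0.23 to 0.23). In Pdx1 gRNA against PBS, Wnt2 became 0.042 without PBS libraries 2 and 3 (-0.26 to 0.093), Rnf43 became -0.0076 with DESeq2 size factors and -0.0078 with DESeq2's test (-0.13 to 0.24), and Wnt9b ran from -0.53 to 0.063. The cause of these changes was not tested; leaving out libraries also leaves fewer to test with. The low counts of Wnt2 and Wnt9b limit what can be seen of them, and intervals cover only the spread between these libraries.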
